A study of Homo sapiens with 4 samples.

Results

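The genes described here carry cells through mitosis. They comprise 52 genes of the mitotic kinases and cyclins, the spindle, the centromere, the spindle checkpoint, cytokinesis and chromosome structure, matched by symbol among the 17656 genes of the deposited table. RNA was measured by sequencing in 4 libraries of U937, an established human monocytic leukemia line. By the labels ZNF217, which encodes a zinc finger protein found with corepressors, was knocked down for 2 libraries (sh-ZNF217), and the other 2 were NC. The study lists the latter as having no treatment but elsewhere uses NC for a negative control, so whether they carried a control construct is unknown. The hairpins of the study were delivered by lentivirus with a puromycin marker, and its text also speaks of a knockout for the sequenced cells, so the wording of the labels was kept. All 52 members were listed. The 51 that reached 1 TPM in 2 libraries were tested, TPM being a gene's share of all transcripts, scaled to a fixed total, once reads are divided by transcript length.

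Mitosis begins when CDK1 bound to cyclin B phosphorylates its targets, and it ends when the anaphase-promoting complex, a ubiquitin ligase, marks cyclin B and securin for destruction. Between these points, kinetochores tie chromosomes to spindle microtubules and a checkpoint holds anaphase until every chromosome is attached. Most of these genes are transcribed late in the cell cycle, repressed in resting cells by the DREAM complex and activated by FOXM1 and the MYB-MuvB complex. Their promoters often hold a CHR element (cell cycle genes homology region) near the start site and CCAAT boxes bound by NF-Y. In bulk RNA, fewer cells in mitosis and less mitotic RNA per cell cannot be told apart.

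The label was checked first. ZNF217 stood at 35.8 and 34.97 TPM in sh-ZNF217-labelled libraries, against 36.1 and 36.7 TPM in NC, or -0.04 as a log2 fold change (SE 0.07, limma adjusted p = 0.7398). Its mRNA, which overlaps exons of other genes on the opposite strand, therefore gave no sign of the knockdown, and every direction below rests on the label. All 10 markers of monocytic cells were listed, and their levels summed to 6412 and 6236 TPM under the sh-ZNF217 label, against 4104 and 4088 TPM in NC, while 0 of 10 erythroid, epithelial and fibroblast markers were listed. Of 4 T and NK cell markers CD3D and CD3E were not listed, and the other 2 summed to 101 and 110.3 TPM in sh-ZNF217-labelled libraries, against 86.3 and 69.1 TPM in NC. Of 3 B cell markers MS4A1 was not listed, and the other 2 summed to 5.19 and 2.66 TPM in sh-ZNF217-labelled libraries, against 6.97 and 1.38 TPM in NC. The share of mitochondrially encoded genes was 12.5% and 12.7% in sh-ZNF217-labelled libraries, against 9.98% and 10.8% in NC. Without mitochondrially encoded genes 4 of the members described below were called lower in place of 5, and 1 higher. The part of the marker sums in the results was not tested. Nothing in the labels tells whether replicates were separate cultures, so the p-values rest on a spread that may be technical. Sequencing depth cannot be read from TPM and was unknown.

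The promoter windows of the 3 called members with a window are shown first. Each window holds CCAAT, and 1 of them, that of PLK1, the letters TTTGAA. Other forms of the CHR were not searched for. They are RefSeq windows of 300 bases, 250 before and 50 after the start, on GRCh38.p14. The AURKB window lies wholly inside the annotated gene (chr17:8204733-8210600, minus strand), downstream of the first base of that gene. The PLK1 window also lies inside its annotated gene (chr16:23677656-23690367). Whether the windows of AURKB and PLK1 are the main promoters was not tested. The motifs present or absent there are therefore given for the windows only. Capitals mark TTTGAA (the commonest form of the CHR), CCAAT and AACGG (the core recognised by MYB proteins), each on either strand.
AURKB (chr17:8210176-8210475, minus strand): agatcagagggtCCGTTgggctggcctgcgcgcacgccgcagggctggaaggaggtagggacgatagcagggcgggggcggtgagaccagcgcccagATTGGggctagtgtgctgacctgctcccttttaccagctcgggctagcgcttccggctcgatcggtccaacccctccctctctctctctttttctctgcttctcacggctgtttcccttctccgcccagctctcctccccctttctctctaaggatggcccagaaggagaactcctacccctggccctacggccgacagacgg
CCNB1 (chr5:69166900-69167199, plus strand): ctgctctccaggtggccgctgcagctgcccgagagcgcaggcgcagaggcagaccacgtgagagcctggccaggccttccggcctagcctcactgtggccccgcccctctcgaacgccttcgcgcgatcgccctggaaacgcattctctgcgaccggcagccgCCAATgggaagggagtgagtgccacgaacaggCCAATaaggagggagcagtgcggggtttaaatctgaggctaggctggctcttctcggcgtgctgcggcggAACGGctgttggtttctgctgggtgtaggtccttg
PLK1 (chr16:23678639-23678938, plus strand): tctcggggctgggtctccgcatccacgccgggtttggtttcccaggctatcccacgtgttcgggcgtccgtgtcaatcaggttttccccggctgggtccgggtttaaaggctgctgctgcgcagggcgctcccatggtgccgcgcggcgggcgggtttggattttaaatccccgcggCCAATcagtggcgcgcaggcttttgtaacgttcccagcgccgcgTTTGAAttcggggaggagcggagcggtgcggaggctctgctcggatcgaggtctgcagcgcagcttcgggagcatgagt

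PLK1 held TTTGAA at -29 and CCAAT at -73 from the start, counting its first base as 1. In CCNB1 the letters CCAAT stood at -87 and -55 and AACGG at 16, and in AURKB they were found on the opposite strand at -153 and -238. A window was matched for 44 of the 52 members, and the first listed was used for the 9 with several. TTTGAA was present in 31 of these 44 windows (70.5%), against 15.4% of the first windows of all 27305 genes. Among the 9483 windows of tested genes the share was 9.71%. CCAAT was present in 31 (70.5%, against 35.7% of all and 36.9% of tested genes). AACGG was present in 24 (54.5%, against 19.9% of all and 26.8% of tested genes). TTTGAA and CCAAT stood together in 23 (52.3%, against 6.08% of all). None of the 3 motifs contains another. No window was matched for BUB3, TPX2, RACGAP1, AURKA, UBE2C, BIRC5, TTK and FOXM1.

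For comparison, the letters around TTTGAA (in capitals) are given for the 5 members of highest level that were not called and held it within 40 bases before the start, chosen after their values were seen. In all, 16 members held TTTGAA there.
CKS2 (chr9:89311154-89311183, plus strand): cgggctgtcggaTTCAAAtccggatcgttg
PRC1 (chr15:90994538-90994567, minus strand): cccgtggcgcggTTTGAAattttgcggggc
CCNB2 (chr15:59105105-59105134, plus strand): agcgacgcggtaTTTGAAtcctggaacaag
MKI67 (chr10:128126435-128126464, minus strand): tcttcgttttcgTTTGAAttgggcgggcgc
HMMR (chr5:163460598-163460627, plus strand): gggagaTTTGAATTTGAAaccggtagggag

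In CKS2 the motif lay on the opposite strand, and in HMMR 2 copies followed each other. The stretches of PRC1 and HMMR lie inside their annotated genes (chr15:90966040-90995629, minus strand, and chr5:163460203-163491941, plus strand). The start is that of the window used, and whether it is the main one was not tested. The median log2 fold change was -0.02 for the members with TTTGAA and -0.12 for the 13 without it, -0.05 with CCAAT and -0.01 for the 13 without, and -0.04 with AACGG and -0.05 for the 20 without. CDC25C is counted in each group without a motif, but it was not tested and enters none of these medians. They are descriptions, with no test.

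Mitosis genes were expressed at high levels in all 4 libraries and differed little between the groups. The tested members had mean levels of 18.4 TPM (ASPM) to 614 TPM (TPX2), and all 51 stood above the median of the tested genes, 16.9 TPM. Together they made up 0.61% and 0.597% of all TPM in sh-ZNF217-labelled libraries, against 0.631% and 0.655% in NC. A gene was called at an adjusted p below 0.05 (limma on log2(TPM + 1), Benjamini-Hochberg adjustment over all 14582 tested genes). By that rule 5 of 51 members fell (9.8%), namely UBE2C, AURKB, PLK1, BIRC5 and CCNB1, against 7.11% of all tested genes that fell, so the share was near that of any gene. None rose, against 9.77% of all tested genes. At an unadjusted p below 0.05 limma gave 10 members lower (15.5% of all tested genes were) and 1 higher (18.9%). Limma without trend and robust moderation called 0 members in either direction, with 163 of all 14582 tested genes called lower and 560 higher.

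**Figure D1:**
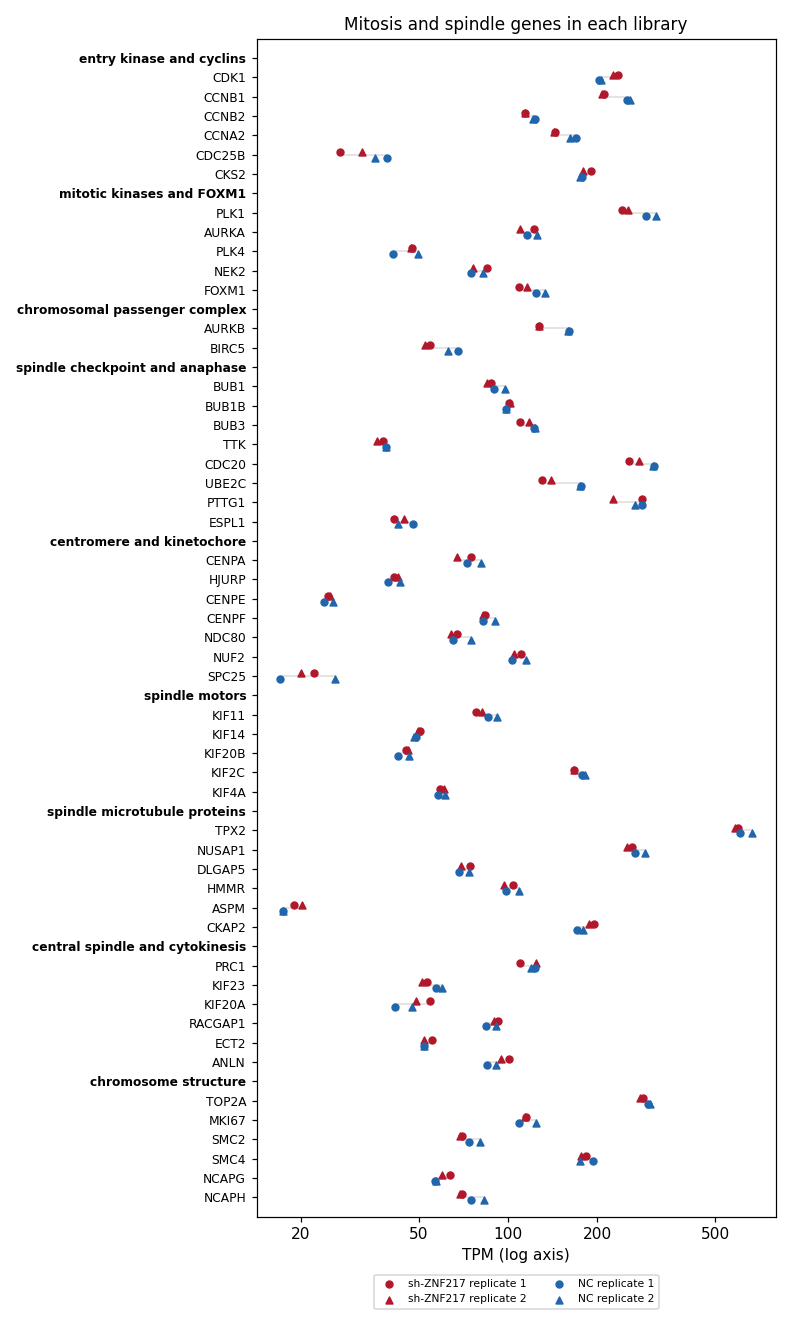
TPM of each of the 51 tested members in each library on a log axis, grouped by role, with red for the libraries labelled sh-ZNF217, blue for NC, circles for replicate 1 and triangles for replicate 2. The red points of AURKB, CCNB1, PLK1, BIRC5 and UBE2C lie left of the blue ones, and in 21 members the colours overlap.

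The changes were small. No member was called past the study's fold minimum of 0.5 on the log2 scale, whereas 2.46% of tested genes were called and below -0.5 and 6.26% called and above 0.5. The values of the members ran from -0.38 (UBE2C) to 0.21 (KIF20A). The 95% interval lay wholly within 0.5 of 0 for 49 of 51 members (96.1%), against 40.7% of all tested genes, and only those of UBE2C (-0.52 to -0.23) and CDC25B (-0.60 to -0.06) reached past it. By this fit, with trended and robust moderation, a log2 change of 0.5 or more in either direction was outside the interval of 49 members. The intervals are not adjusted for the number of members and are given for this fit only. The members had a median level of 89.96 TPM, against 16.89 TPM over all tested genes, and the 96.1% and 40.7% were not matched for level. The median was -0.06, against 0.02 over all tested genes, and 33 of 51 members were negative (64.7%, against 47.5% of all). The groups did not overlap in 30 members, of which 21 had lower values under the sh-ZNF217 label (41.2%, against 28.6% of all tested genes) and 9 higher (17.6%, against 33.5%). The median absolute difference over members was 0.0584 between the libraries labelled sh-ZNF217 and 0.105 between the NC libraries, and 0.101 to 0.134 across the groups, so the typical member differed between groups about as much as it did within NC. With any 1 library left out, fewer members were called, and fewer genes in all. UBE2C was at -0.33 without sh-ZNF217 replicate 1 and at -0.43 without sh-ZNF217 replicate 2, and BIRC5 at -0.32 and -0.26. Without NC replicate 2, CCNB1 was at -0.27 and PLK1 at -0.24.

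**Figure D2:**
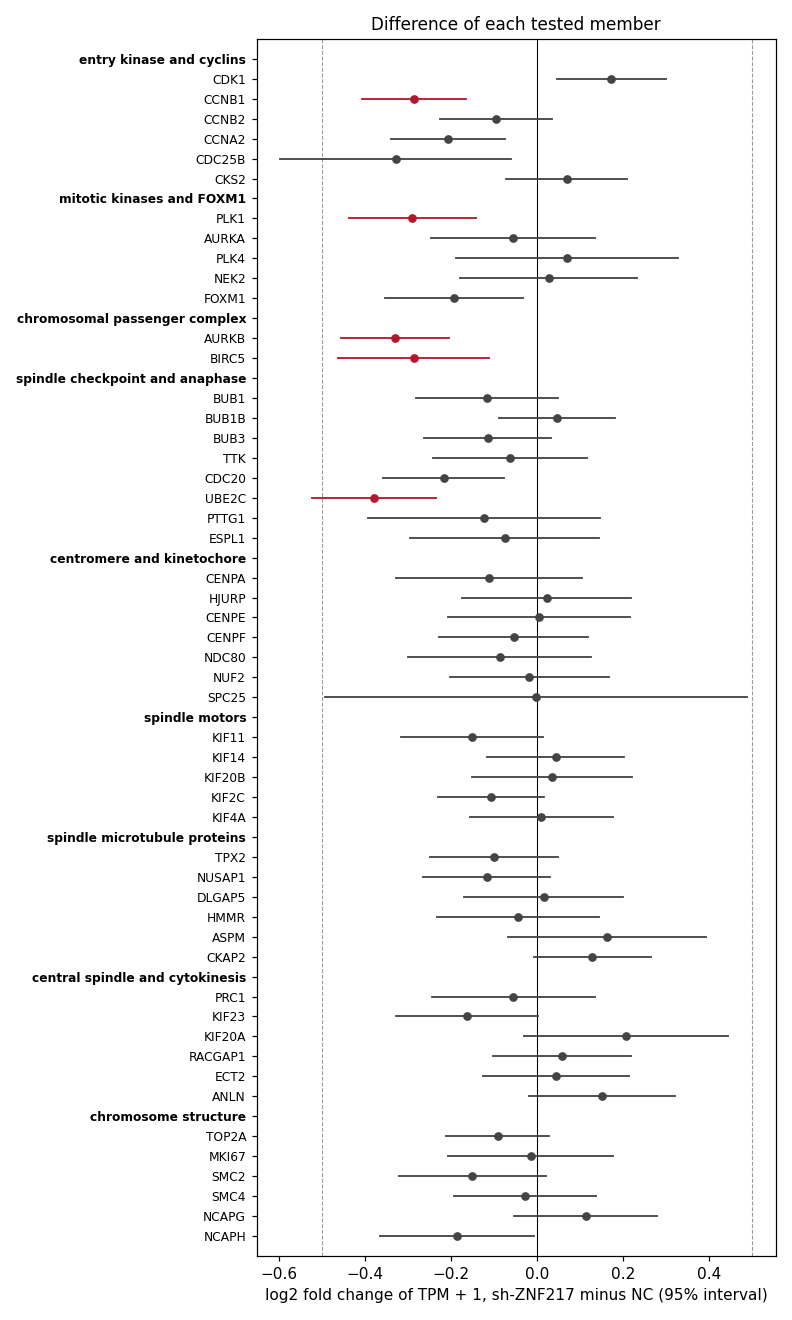
For each of the 51 tested members, the log2 fold change of TPM + 1 (sh-ZNF217 label minus NC) with its 95% interval from limma, with the 5 called members in red and dashed lines at the fold minimum of 0.5. The intervals of 49 members lie between the dashed lines, and only those of UBE2C and CDC25B cross the lower one.

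Among the kinase and cyclins of mitotic entry, cyclin B1 fell and CDK1 was not called. CCNB1 (ENSG00000134057, chr5:69167135-69178245 on hg38 by GENCODE 44, as for the genes below), the cyclin that activates CDK1 at entry, had 212 and 208 TPM in sh-ZNF217-labelled libraries, against 253 and 259 TPM in NC. It fell by 18.04%, or -0.29 on the log2 scale (SE 0.05, limma adjusted p = 0.0195), with a gap between the groups far wider than either pair. CDK1, the catalytic partner, had 235 and 226 TPM in sh-ZNF217-labelled libraries against 202 and 206 TPM in NC (0.17, limma adjusted p = 0.0721), so its values lay above those of NC without passing. It passed as higher once mitochondrially encoded genes were left out and the rest rescaled (0.21, adjusted p = 0.0484). CCNB1 and CDK1, which act as a pair, thus had values on opposite sides of 0. CCNA2, the cyclin of S phase and early mitosis, had 144 and 143 TPM in sh-ZNF217-labelled libraries against 169.5 and 162 TPM in NC (-0.21, limma adjusted p = 0.0529), close to the threshold. CCNA2 was called with median-of-ratios scaling (adjusted p = 0.0401) and with a mean of at least 5 TPM required (0.0417), and it overlaps exons of EXOSC9 on the other strand. CCNB2, a second B-type cyclin, had 114 and 114 TPM in sh-ZNF217-labelled libraries against 123 and 121 TPM in NC (-0.10), and the groups did not overlap although the interval (-0.23 to 0.03) held 0. CKS2, a small subunit that binds CDK1, had 191 and 179 TPM in sh-ZNF217-labelled libraries against 178 and 175 TPM in NC (0.07). CDC25B, a phosphatase that removes the inhibitory phosphates of CDK1, was at -0.33 (limma adjusted p = 0.0937), lower than the value of CCNB1 but with a larger SE of 0.11. The related phosphatase CDC25C was listed at 0.914 and 0.474 TPM in sh-ZNF217-labelled libraries and at 0 and 0.315 TPM in NC, below the filter, and is the member that was not tested.

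Of the other mitotic kinases and the factor FOXM1, PLK1 fell. PLK1 (ENSG00000166851, chr16:23677656-23690367), a kinase of centrosome maturation, spindle assembly and cytokinesis, had 243 and 254 TPM in sh-ZNF217-labelled libraries, against 293 and 315 TPM in NC. It fell by 18.3% (-0.29, SE 0.06, limma adjusted p = 0.0301), and no library of the groups overlapped. PLK1 overlaps exons of ERN2 on the other strand, so its level is uncertain where reads were counted without strand. It was the only called member among the 18 that overlap another gene. FOXM1, a transcription factor of late cell cycle genes, had 109 and 116 TPM in sh-ZNF217-labelled libraries against 124 and 133 TPM in NC (-0.19, limma adjusted p = 0.0993), with separate groups but no call. AURKA, the kinase of centrosomes and spindle poles, had 122 and 109.7 TPM in sh-ZNF217-labelled libraries against 116 and 125 TPM in NC (-0.06). NEK2, which separates centrosomes, had 84.7 and 75.9 TPM in sh-ZNF217-labelled libraries against 75.2 and 82.3 TPM in NC (0.03), and PLK4, the kinase of centriole duplication, 47.4 and 47.2 TPM in sh-ZNF217-labelled libraries against 40.9 and 49.6 TPM in NC (0.07). The groups overlapped in AURKA, NEK2 and PLK4.

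The listed genes of the chromosomal passenger complex, which corrects faulty attachments and drives cytokinesis, both fell. AURKB (ENSG00000178999, chr17:8204733-8210600), its kinase, had 127 and 127 TPM in sh-ZNF217-labelled libraries, against 160.2 and 159 TPM in NC. Its replicates were nearly equal, and it fell by 20.6% (-0.33, SE 0.05, limma adjusted p = 0.0147). BIRC5 (ENSG00000089685, chr17:78214186-78225636) encodes survivin, the subunit that brings the complex to the centromere. It had 54.5 and 52.3 TPM in sh-ZNF217-labelled libraries against 67.8 and 62.9 TPM in NC and fell by 18.3% (-0.29, SE 0.07, limma adjusted p = 0.0477). This call was the closest to the threshold and was lost without a filter on low values (adjusted p = 0.0574), without mitochondrially encoded genes (0.0633) and without any 1 of the 4 libraries (0.0708 to 0.177). The other subunits, INCENP and CDCA8, were not members and were not called.

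Of 8 genes of the spindle checkpoint and of anaphase, 1 fell and 7 had negative values. UBE2C (ENSG00000175063, chr20:45812576-45816957), the enzyme that supplies ubiquitin to the anaphase-promoting complex, had 130.3 and 139.6 TPM in sh-ZNF217-labelled libraries, against 177 and 175 TPM in NC. It fell by 23.1% (-0.38, SE 0.06, limma adjusted p = 0.0149), the lowest log2 value among the tested members. CDC20, the activator of that complex which the checkpoint holds back, had 256 and 277 TPM in sh-ZNF217-labelled libraries against 311 and 308 TPM in NC (-0.22, limma adjusted p = 0.0536). Like CCNA2 it lay just outside the threshold and was called with median-of-ratios scaling (adjusted p = 0.0403) and with the 5 TPM minimum (0.0417). PTTG1, or securin, the inhibitor of separase, had 283 and 227 TPM in sh-ZNF217-labelled libraries against 283 and 268 TPM in NC (-0.12), and the first library labelled sh-ZNF217 lay between those of NC. BUB3, a checkpoint protein at kinetochores, had 109.8 and 117 TPM in sh-ZNF217-labelled libraries against 122 and 124 TPM in NC (-0.11). BUB1B, or BUBR1, which binds and inhibits CDC20, had 101 and 102 TPM in sh-ZNF217-labelled libraries against 98.1 and 98.1 TPM in NC (0.05), the only positive value of this group, and it shares exons with PAK6 and a readthrough transcript. The kinases BUB1 (-0.12) and TTK (-0.06) of the checkpoint and ESPL1 (-0.07), the separase that cuts cohesin, were not called. With the GC and length correction described below, BUB1B was at -0.08.

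The centromere and kinetochore genes did not differ beyond the spread of their replicates. In all 7 the groups overlapped, with log2 fold changes of -0.11 to 0.02 and a median of -0.02. NUF2, a subunit of the NDC80 complex that holds microtubules, had 111 and 105 TPM in sh-ZNF217-labelled libraries, against 103 and 115 TPM in NC (-0.02, interval -0.20 to 0.17). NDC80 itself had 67.1 and 64.1 TPM in sh-ZNF217-labelled libraries against 65.01 and 74.8 TPM in NC (-0.09), and the third subunit of the list, SPC25, was at -0.0025 with a wide interval of -0.49 to 0.49. The wide interval came with NC values of 17.04 and 25.98 TPM, which lie on both sides of the values of the other group. CENPF, a large kinetochore protein, had 83.7 and 82.5 TPM in sh-ZNF217-labelled libraries against 82.2 and 90.6 TPM in NC (-0.05), and CENPA, the histone variant that marks the centromere, 74.8 and 67.4 TPM in sh-ZNF217-labelled libraries against 72.6 and 81.3 TPM in NC (-0.11). HJURP, the chaperone that deposits CENPA, and CENPE, a kinetochore motor, were at 0.02 and 0.01.

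The kinesins of the spindle were not called either. KIF2C, which depolymerises microtubules at centromeres, had 166 and 167 TPM in sh-ZNF217-labelled libraries, against 178 and 181 TPM in NC (-0.11, limma adjusted p = 0.1903). KIF11, the motor that pushes spindle poles apart, had 78.03 and 81.4 TPM in sh-ZNF217-labelled libraries against 85.4 and 91.9 TPM in NC (-0.15, limma adjusted p = 0.174). In both, the groups were separate and the interval held 0. KIF4A, a motor of chromosome arms and of the central spindle, had 58.8 and 61.01 TPM in sh-ZNF217-labelled libraries against 57.9 and 61.1 TPM in NC (0.01), and KIF14, a motor of cytokinesis, 50.5 and 49.5 TPM in sh-ZNF217-labelled libraries against 48.9 and 48.2 TPM in NC (0.04). KIF20B was at 0.04, so that 3 of the 5 motors were on the positive side by less than 0.05. With the GC and length correction described below, KIF4A, KIF14 and KIF20B were at -0.10, -0.13 and -0.16.

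Spindle microtubule proteins had values on both sides of 0. TPX2, which activates AURKA on spindle microtubules and had the highest level of all members, stood at 599 and 586 TPM in sh-ZNF217-labelled libraries, against 605 and 666 TPM in NC (-0.10, limma adjusted p = 0.2999). NUSAP1, which bundles microtubules near chromosomes, had 262 and 253 TPM in sh-ZNF217-labelled libraries against 268 and 290.2 TPM in NC (-0.12), and shares exons with OIP5-AS1 among others. In these the groups were separate by a narrow gap. CKAP2, a protein that stabilises spindle microtubules, had 195 and 188 TPM in sh-ZNF217-labelled libraries against 171 and 179 TPM in NC (0.13), on the other side of 0. HMMR had 104 and 96.8 TPM in sh-ZNF217-labelled libraries against 98.5 and 109 TPM in NC (-0.04), DLGAP5 was at 0.02, and ASPM, which organises spindle poles, at 0.16. None of the 6 was called. With the GC and length correction described below, CKAP2, DLGAP5 and ASPM were at -0.04, -0.14 and -0.05.

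Genes of the central spindle and of cytokinesis had 4 of 6 values above 0, and none was called. PRC1, which bundles the microtubules of the central spindle, had 109.7 and 124 TPM in sh-ZNF217-labelled libraries, against 123 and 119 TPM in NC (-0.05). ANLN, the scaffold of the contractile ring, had 101 and 94.5 TPM in sh-ZNF217-labelled libraries against 84.7 and 90.9 TPM in NC (0.15, limma adjusted p = 0.181), with separate groups. RACGAP1 and KIF23 form the centralspindlin complex, and their values lay on opposite sides of 0. RACGAP1 had 92.5 and 89.9 TPM in sh-ZNF217-labelled libraries against 84.4 and 90.9 TPM in NC (0.06), and KIF23 53.1 and 51.4 TPM in sh-ZNF217-labelled libraries against 57.3 and 60.01 TPM in NC (-0.16, limma adjusted p = 0.149). ECT2, the exchange factor that activates RhoA at the cleavage site, was at 0.04. KIF20A, a motor of the central spindle, held the highest value of all members, 0.21 (limma adjusted p = 0.188), and overlaps exons of CDC23 and BRD8 on the other strand. With the GC and length correction described below, RACGAP1 was at -0.06, KIF23 at -0.30 and ECT2 at -0.13.

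Among genes of chromosome structure 5 of 6 values were negative, with none called. TOP2A, the topoisomerase that untangles sister chromatids, had 285 and 278 TPM in sh-ZNF217-labelled libraries, against 297 and 302 TPM in NC (-0.09, interval -0.21 to 0.03). MKI67 encodes Ki-67, the coat of mitotic chromosomes used as a marker of dividing cells. It had 115 and 114 TPM in sh-ZNF217-labelled libraries against 109 and 124 TPM in NC (-0.01, interval -0.21 to 0.18), and both values of the libraries labelled sh-ZNF217 lay between those of NC. The condensin subunits SMC4 (183 and 177 TPM in sh-ZNF217-labelled libraries against 193 and 175 TPM in NC, -0.03) and NCAPH (70.1 and 68.6 TPM in sh-ZNF217-labelled libraries against 75.2 and 83.1 TPM in NC, -0.19) were not called. Of these NCAPH had separate groups and a limma adjusted p of 0.135. SMC2 was at -0.15 and NCAPG at 0.11, so subunits of the same complex had values on both sides of 0 in this comparison. With the GC and length correction described below, NCAPG was at -0.04 and SMC2 at -0.32.

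Members of higher GC content, a property the choice of genes had not used, had lower values. The 5 that fell had canonical transcripts with a GC content of 41.9% (CCNB1) to 57.1% (PLK1), against a median of 41.9% over the members and 48.5% over the tested genes. All 9 members at 50% GC or more were negative (median -0.29, 4 called), while the 22 between 40% and 50% had a median of -0.08 (1 called) and the 20 below 40% one of 0.01 (none called). The same order held over all tested genes, with medians of -0.05, 0.05 and 0.12. Spearman's rho between GC content and log2 fold change was -0.541 over the 51 members and -0.219 over the 13432 tested genes with a value, and with transcript length it was 0.278 and 0.148. These correlations run across genes of the same 4 libraries and are descriptions. A library effect of GC content and a change of GC-rich genes in the cells cannot be told apart here.

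**Figure D3:**
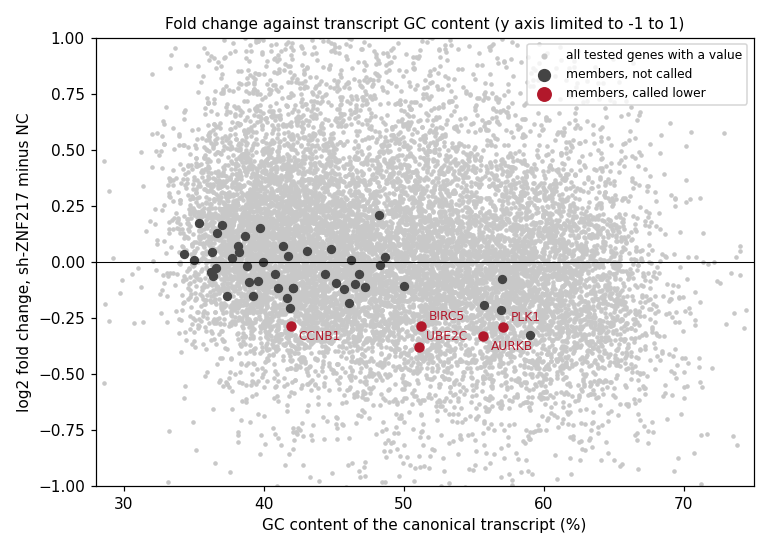
Log2 fold change (sh-ZNF217 label minus NC) against the GC content of the canonical transcript in percent, with grey points for tested genes, dark points for members not called and red points for the 5 called. The 9 members at 50% GC or more all lie below 0, and 4 of the 5 called are among them.

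When each library was corrected for GC content and transcript length, the mitosis genes stood lower as a group. The number that fell went up to 19 of 51 (37.3%, against 12.2% of the 13432 genes tested in this way), all 5 above included, and 0 rose (8.72% of all did). The median was -0.17, against -0.04 over all genes, and 48 members were negative (55.3% of all genes were). The 14 added were CCNA2, TOP2A, SMC2, KIF23, KIF11, NUSAP1, NCAPH, BUB1, BUB3, KIF2C, TPX2, CENPF, CDC20 and FOXM1. Among them CCNA2 (-0.33, limma adjusted p = 0.0149), TOP2A (-0.25, 0.0138) and SMC2 (-0.32, 0.0194) had the smallest p values. CCNB1 then had the lowest value, -0.40, and CDK1 (0.02), ANLN (0.0022) and KIF20A (0.12) were the 3 that stayed positive. MKI67 (-0.16, limma adjusted p = 0.143) and AURKA (-0.15, 0.151) were not called with the correction either, and no value passed 0.5. Whether the correction removes a library effect or part of the change itself was not tested.

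**Figure D4:**
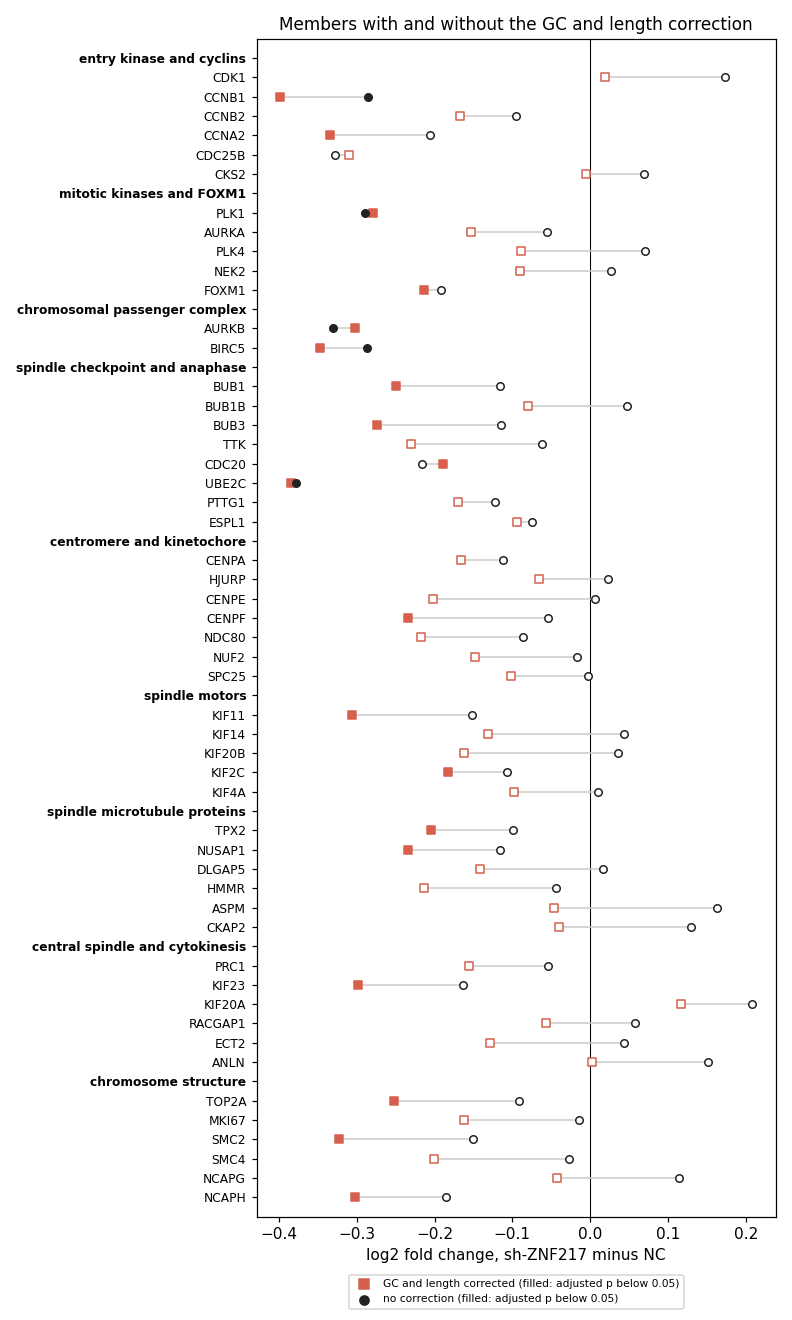
Log2 fold change (sh-ZNF217 label minus NC) of the 51 tested members, uncorrected (circles) and corrected for GC content and transcript length (squares), filled where the adjusted p is below 0.05. Squares lie left of circles for most members, and 19 squares are filled against 5 circles.

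Other genes of mitosis gave a similar count. Of 94 tested, 11 fell (11.7%, against the 7.11% of all genes) and 0 rose (9.77% of all did), with a median of -0.11. At an unadjusted p below 0.05 limma gave 24 lower (15.5% of all tested genes were) and 7 higher (18.9%). Limma without trend and robust moderation called 0 of them, with 163 of all 14582 tested genes called lower and 560 higher. Their median ran from -0.11 to -0.08 with 1 library left out. Without mitochondrially encoded genes 7 fell and 2 rose, with 809 of all 14840 genes then tested called lower and 1635 higher. CENPH, a subunit of the inner kinetochore, had 47.03 and 45.01 TPM in sh-ZNF217-labelled libraries, against 65.98 and 73.4 TPM in NC (-0.59, limma adjusted p = 0.01097), and of the 94 it was the only gene called past 0.5. CDC25A, the phosphatase that activates CDK2 and CDK1, had 61.1 and 62.3 TPM in sh-ZNF217-labelled libraries against 81.6 and 80.4 TPM in NC (-0.39). The checkpoint proteins MAD2L1 (45.5 and 43.6 TPM in sh-ZNF217-labelled libraries against 58.5 and 57.8 TPM in NC, -0.38) and MAD1L1 (-0.37) fell, as did MIS18A (-0.36), which prepares centromeres for CENPA. The 17 genes of the anaphase-promoting complex and its regulators held none called, and their median was 0.02. Of 11 further condensin and cohesin genes none was called (median -0.11). With the GC and length correction 29 of the 94 fell and 0 rose, against 12.2% and 8.72% of all genes tested in this way. Their median was then -0.18, against -0.04 over all genes.

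Of 16 factors that control mitotic transcription through the DREAM and MYB-MuvB complexes, 3 fell (18.8%, against 7.11% of all tested genes) and 0 rose (9.77% of all did), with a median of -0.08. At an unadjusted p below 0.05 limma gave 4 lower (15.5% of all tested genes were) and 2 higher (18.9%). Without trend and robust moderation it called 0, with 163 of all 14582 tested genes called lower and 560 higher. The median of these factors ran from -0.12 to -0.07 with 1 library left out. Without mitochondrially encoded genes 1 fell. With the GC and length correction 4 fell, against 12.2% of all genes tested in this way, with a median of -0.19. MYBL2, the B-MYB protein that activates these genes, had 231 and 235 TPM in sh-ZNF217-labelled libraries, against 266 and 278 TPM in NC (-0.22, limma adjusted p = 0.0399). TFDP1, the partner of E2F proteins, had 557 and 579 TPM in sh-ZNF217-labelled libraries against 676 and 693 TPM in NC (-0.27, limma adjusted p = 0.0205), and RBBP4, a histone-binding subunit of MuvB, was at -0.22 (limma adjusted p = 0.0482). The related factor MYB, a gene the study followed further, had 149 and 146 TPM in sh-ZNF217-labelled libraries against 219 and 239 TPM in NC (-0.63, limma adjusted p = 0.00534). CDKN1A, which encodes p21 and holds cyclin-dependent kinases in check, had 73.7 and 77.2 TPM in sh-ZNF217-labelled libraries against 39.9 and 41.8 TPM in NC (0.87, limma adjusted p = 0.00324). Both changes were larger than that of any mitosis member.

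Genes of DNA replication were called more often. Of 49 tested, 14 fell (28.6%, against 7.11% of all tested genes) and 1 rose (POLE4, 0.34, with 9.77% of all called higher). Negative values were held by 44 (47.5% of all tested genes were negative), with a median of -0.23, against -0.06 for the mitosis members. Without trend and robust moderation limma called 1 of the replication genes lower, with 163 of all 14582 tested genes called lower. The median of the replication genes ran from -0.25 to -0.20 with 1 library left out. POLD2, which belongs to DNA polymerase delta, was at 127 and 129 TPM in sh-ZNF217-labelled libraries against 186 and 189 TPM in NC (-0.55, limma adjusted p = 0.00491). TYMS, the thymidylate synthase, fell to 294 and 283 TPM in sh-ZNF217-labelled libraries against 367 and 360.3 TPM in NC (-0.34), and MCM3, a subunit of the replicative helicase, to 211 and 209 TPM in sh-ZNF217-labelled libraries against 259 and 261 TPM in NC (-0.31). RFC5 (-0.49) and MCM4 (-0.27) fell too. With the GC and length correction 30 of 49 replication genes fell, against 12.2% of all genes tested in this way. Their median was then -0.30, against -0.17 for the mitosis members and -0.04 over all genes. The difference between the lists was not tested, and these counts and medians describe it.

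**Figure D5:**
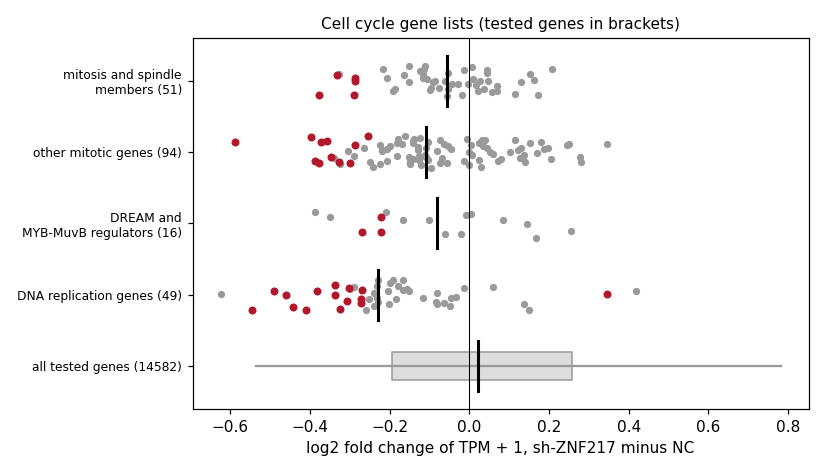
For each tested gene of 4 lists, the log2 fold change of TPM + 1 (sh-ZNF217 label minus NC), with red points for called genes and a black bar at the median; for all 14582 tested genes the box spans the 25th to 75th percentile and the line the 5th to 95th. Medians are -0.06 for mitosis members, -0.11 for other mitotic genes, -0.08 for the DREAM and MYB-MuvB regulators, -0.23 for DNA replication genes and 0.02 for all genes.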

How the data were processed

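U937 RNA, taken up in Trizol, went into Illumina TruSeq libraries. The authors filtered the reads, mapped them to hg38 with HISAT2 2.0.5 (version and build from the submitters' processing notes) and quantified genes with a tool, an annotation and a strand setting not given in the sources used here. From the table itself, the values the authors deposited were taken as TPM, since columns summed to 998932 to 999282 and short genes on shared mRNAs had values like those of longer ones; the study's methods name the measure FPM. TPM keeps no depth, so no counting error could be given.

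Column names were tied to samples through NC or ZNF plus replicate number; their further parts are unexplained. Columns of other samples numbered 0. Symbols came from GENCODE 44 by Ensembl identifier (16143 of 17656). Genes with at least 1 TPM in 2 libraries (14582) were compared on log2(TPM + 1), libraries labelled sh-ZNF217 minus NC, with limma 3.58.1 in R 4.3.3 (group alone, trended and robust moderation). Folds on this scale understate low genes. Percent changes are ratios of mean TPM. The correction regressed each library's deviation from the gene mean on splines of GC content and log length of the canonical transcript, over 13432 genes.

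The members and lists were chosen with earlier results of these data known. Values per library were given for called members and up to 4 others of highest level per role. Up to 5 genes of smallest p were named per further list. ZNF217, MYB and CDKN1A were named as checks, and promoter windows were shown for the called members that had one. Alternatives were a pseudocount of 0.1 or 0.5, no filter, a mean of at least 5 TPM, median-of-ratios scaling, rescaling without mitochondrially encoded genes, limma without trend and robust moderation, the GC and length correction, a replicate block, and each library left out. Procedures were tested on simulated data. Figures were drawn with matplotlib 3.10.9.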

Additional observations from a re-analysis of the deposited data

How the results depend on the processing

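The 5 called members had a negative log2 fold change in the main comparison and under all 14 alternatives, and the count of 5 was within 1.5 times under pseudocounts, filters, both scalings and the replicate block. The other mitotic genes called lower numbered 17 both under median-of-ratios scaling and when a mean of 5 TPM was required. Limma without trend and robust moderation called 0 members and 723 genes in all, against 2461. The member median was negative throughout. The GC and length correction called 19 members (median -0.17; 1645 genes lower and 1171 higher in all, against 1037 and 1424), and with the replicate block added 14 (median -0.17). Leaving out 1 library gave 0 to 4 members lower, 465 to 1503 genes called in all and member medians of -0.103 to -0.0253. Without mitochondrially encoded genes 1 member, CDK1, was called higher. Of the 46 uncalled members, 26 changed sign under at least 1 alternative, 8 of them under another scaling, so no direction is claimed for them. The replicate numbers did not pair the libraries (r = -0.0053 over all genes between the differences of same-numbered libraries), and a replicate block called 4 members and 1685 genes, with BIRC5 lost (adjusted p = 0.0677). With the block the other mitotic genes called lower numbered 5 in place of 11, and the DREAM and MYB-MuvB regulators 1 in place of 3. With 2 libraries a group and unknown depth, the smallest change called among members was -0.29 on the log2 scale.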

Other observations

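Among mitotic genes outside the members, 24 further kinetochore genes held 4 that fell (median -0.13, with 7.11% of all tested genes called lower, the share to set beside each count here), among them CENPH, MIS18A and SKA2 (-0.35), a protein that ties kinetochores to microtubules. Of 21 further spindle genes 2 fell, the motors KIF15 (-0.30) and KIF22 (-0.25), and of 8 further regulators of entry CDC25A and PKMYT1 (-0.33), a kinase that inhibits CDK1. ZWINT (-0.29), a kinetochore protein, was among 3 of 9 further checkpoint genes that fell, each by limma adjusted p below 0.05. SKA2, KIF15, KIF22, PKMYT1 and ZWINT were named after their values were seen.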
